A study of Piaractus mesopotamicus with 6 samples.

Results

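Histones and DNA carry chemical marks that are set by one group of enzymes and taken off by another, and the genes of these enzymes were followed from muscle to culture in the freshwater fish pacu (Piaractus mesopotamicus). They were taken by symbol, ignoring case: the DNA methyltransferases (dnmt), the TET dioxygenases, and the families ezh, kmt, kdm, setd, nsd, ehmt, suv39, suv420, prdm, kat, hdac and sirt, with 1 transcript for each symbol, that with the highest mean over the 6 libraries. Of 16347 names in the deposited table, 95 matched, with 547 assembled transcripts between them. The values of 93 reached 10 or more in at least 3 libraries and were tested, whereas hdac11 and sirt4 stayed below that filter.

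DNA methyltransferases add a methyl group to cytosine, and TET enzymes oxidise it as a step towards its removal. On histone H3, methylation of lysine 4 marks promoters and enhancers in use, lysine 9 and lysine 27 methylation mark silent chromatin, and lysine 36 methylation lies over transcribed gene bodies. Acetyltransferases loosen chromatin and deacetylases reverse this. In vertebrate muscle, Ezh2 holds muscle genes silent in precursor cells, and class IIa deacetylases bind MEF2 factors and repress their targets.

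Polyadenylated RNA was sequenced from primary muscle cells in culture (3 libraries) and from fast-twitch muscle of the epaxial region (3 libraries), all of wild-type juvenile fish of 12 to 20 g kept at 28 °C. Culture medium was DMEM containing 10% fetal bovine serum plus 1% antibiotics, and each isolation of cells took muscle from 12 fish. The tissue came from 6 fish fed ad libitum. The sources used here say neither whether a tissue library pools fish, nor how long the cells were cultured or whether the 3 cell libraries are separate isolations, so the p-values measure the spread between these libraries, which may in part be technical. Values are read counts divided by 1 size factor per library. Transcripts of 1 assembled gene may carry the same reads: the 2 nsd2 transcripts each held 50% of their sum in every tissue library. The numbers of transcripts called for an enzyme below are therefore not independent measurements. Recovered reads per library numbered 105795157 to 115224600 in cells and 118183731 to 124752600 in tissue, but 1 read was worth 0.391 to 0.439 units in cells and 1.98 to 2.67 in tissue, so low values are coarser in tissue.

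The libraries differed in far more than chromatin genes. Of 13 fast muscle fibre markers, 12 were lower in cells. Their summed level was 678, 3730 and 5338 in cell libraries 1, 2 and 3 against 13167070.2 to 19075017 in tissue. The cell libraries thus nearly lacked the transcripts that define the fibre, library 1 most of all. All 10 proliferation markers were higher in cells, with summed levels of 5081 to 6461 against 447, 1039 and 933 in tissue libraries 1, 2 and 3. Of the fibroblast markers 5 of 9 were higher and 1 lower (999773 to 1353279 against 429999.8 to 529557). All 7 leukocyte markers were lower in cells (15.7 to 28.5 against 6518 to 8996, with lcp1 at 0 in cells), as were all 5 erythrocyte markers (1.56 to 15.7 against 2616 to 22875). The 4 neuron and Schwann cell markers tested were lower too (69.7 to 95.2 against 3079 to 3688, with plp1b and mbpa at 0 in cells). Of 8 endothelial markers 5 were lower and 1 higher (2162 to 2504 against 2512 to 3692, with flt1 at 0 in cells). The part of these cell types in the results below was not tested, and in such bulk samples fewer cells of a type and less RNA per cell cannot be told apart.

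On the deposited scale, most chromatin enzymes moved little between muscle and culture. At a limma adjusted p below 0.05 over all 65662 transcripts tested, 18 of 93 rose in cells and 14 fell, 34.4% in all, where 52.2% of all 15496 names were called, 30.5% higher and 21.7% lower. Leaving out cell library 1, 2 or 3 left 9, 10 and 10 higher, and leaving out cell library 2 left 8 lower. Tissue library 1 had the lowest of the 3 tissue values for 47 enzymes and the highest for 29, and without it 22 were higher and 16 lower. The median log2 change, cells minus tissue and computed on log2(value + 1) throughout, was 0.24 over the enzymes and 0.59 over all names, and 52 enzymes (55.9%) against 34.6% of names lay within 1 log2 unit of 0. The cell libraries lay wholly above the tissue libraries for 28 enzymes and wholly below for 18, or 49.5% against 66.3% of names (40.5% above, 25.8% below), among them all 32 that were called. The median coefficient of variation was 15.4% over the cell libraries and 36.4% over the tissue libraries (19.0% and 40.4% for all names).

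Direction depended on whether the libraries were scaled to an equal total. TMM, upper-quartile and median-of-ratios rescaling gave 13, 17 and 14 higher, each with 16 lower. They kept 27, 31 and 28 of the 32 calls, and none of the results compared reversed in direction under them. If each library is instead scaled to an equal total, the median of all names moves from 0.59 to 3.06, and 80 enzymes were called higher and 0 lower (79.3% and 8.27% of names). A fall below is therefore a fall on the deposited scale, and the equal-totals value is given wherever a called enzyme or a named, called partner gene then has the other sign. A total of 15 calls, 9 higher and 6 lower, were kept in every alternative run in which the enzyme was tested other than equal totals: EZH1, kdm1a, kdm5a, kdm5bb, hdac1, hdac4, hdac6, hdac7a and setd6 among the higher, and tet1, kat6b, hdac9b, setd7, setd3 and sirt2 among the lower. Of the enzymes called higher, setd6, suv39h1b and PRDM15 met the filter only through the cell libraries. They were thus tested only because they were high in cells, and their calls carry less weight.

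**Figure D1:**
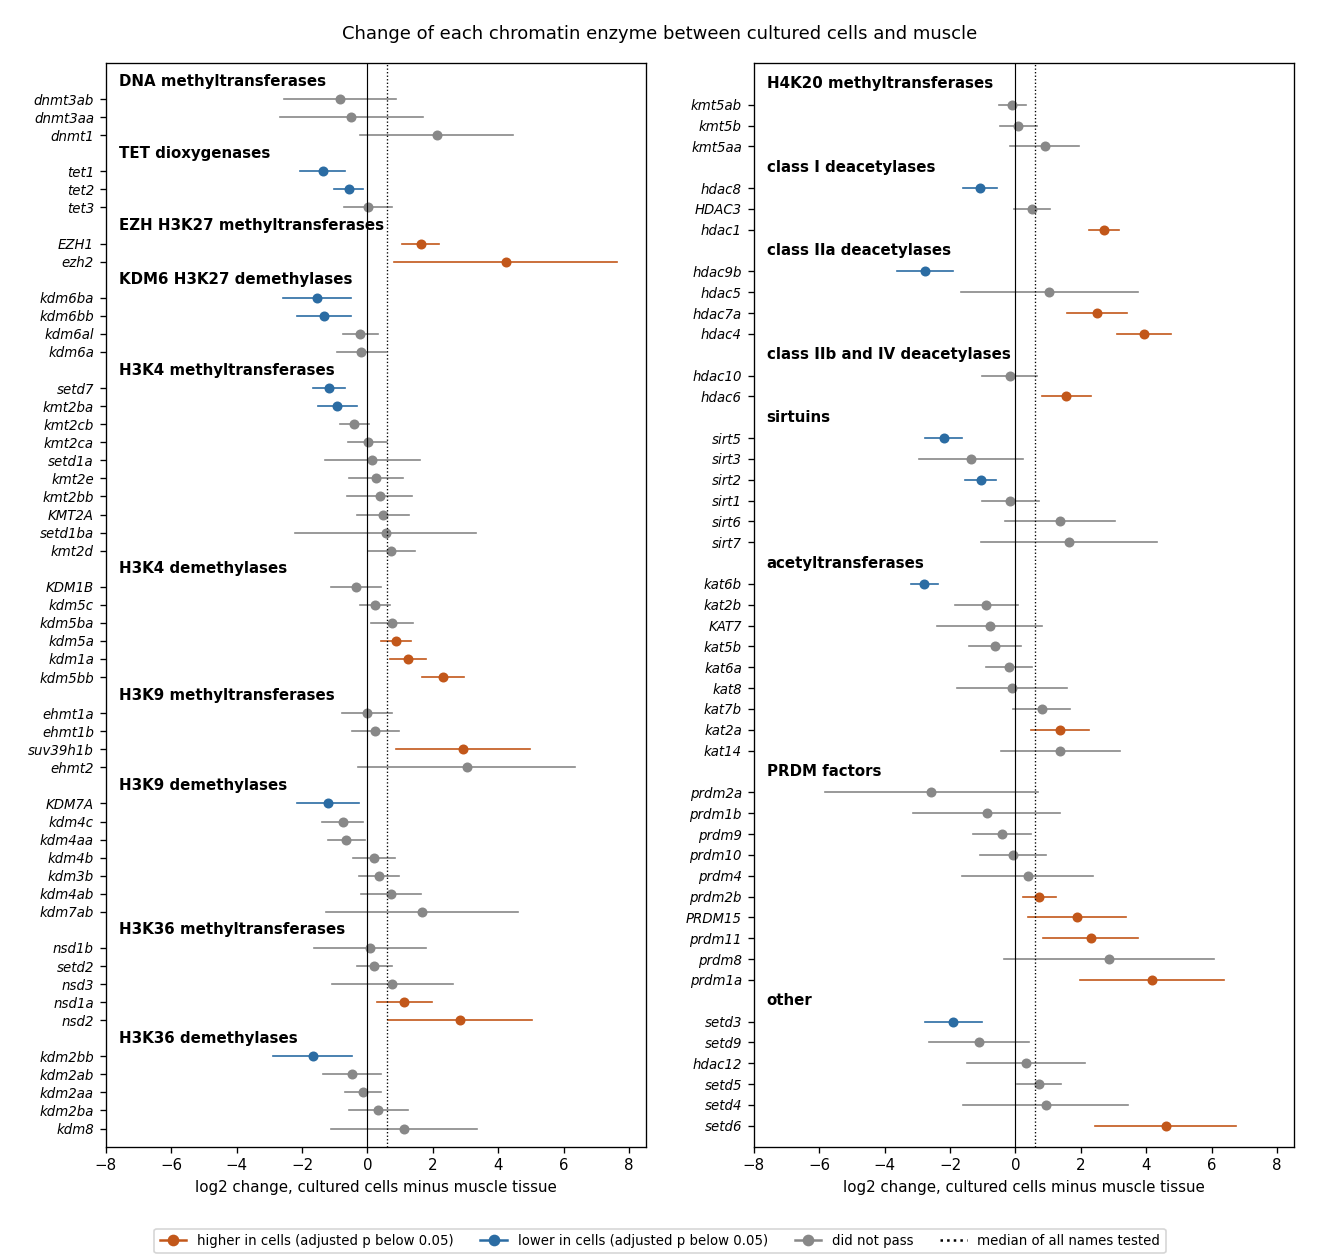
Log2 change, cultured cells minus muscle tissue, of the enzymes tested other than 1 that is not shown, grouped by role (3 libraries a group). Points are limma estimates on the deposited scale, lines their 95% intervals, and colours the call at an adjusted p below 0.05; the dotted line marks the median of all names, 0.59. The 18 enzymes called higher and 14 called lower are spread over most roles, and under equal totals none was called lower.

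Among the DNA methylation enzymes, 2 of the 3 TET genes fell in cells on the deposited scale, and no DNA methyltransferase passed the test. Of all names 21.7% fell and 30.5% rose, and 3 genes are too few to set against such a share. The level of tet1 was 141, 112 and 163 in cells against 270.2, 383 and 436 in tissue, without overlap, a log2 change of -1.37 ± 0.29 (SE; limma adjusted p = 0.00699; 1.16 under equal totals). For tet2, the levels of 541, 399 and 455 lay closely below the 730.3, 692 and 641 of tissue (-0.57 ± 0.18, limma adjusted p = 0.0383; 1.96 under equal totals). The tet2 call was lost on leaving out any 1 library other than cell library 1 and under voom, whereas tet3, at 373, 219 and 198 in cells against 246, 302 and 211 in tissue, had a change of 0.015 ± 0.31. The maintenance methyltransferase dnmt1, which copies methylation onto the new strand after replication, read 420.0, 473 and 387 in cells and 16.05, 234 and 239 in tissue. All cell libraries were above all tissue libraries, but the change of 2.11 ± 0.99 did not pass (limma adjusted p = 0.119), tissue library 1 being far below the other 2. In that library dnmt1 had 6 reads, and 23.6% of all values were 0, against 12.6% in each of the other tissue libraries. It also had the lowest sum of proliferation markers, and the part of either in the dnmt1 level was not tested. Without that library, left out because of its value, the change was 0.84, which is a description and not a test. The de novo enzyme gene dnmt3ab had 57.5, 121 and 135 in cells and 58.8, 345 and 269 in tissue, and its groups overlapped. Its change of -0.84 did not pass (limma adjusted p = 0.361). Without tissue library 1, again left out because of its value, it was -1.63. The other de novo gene, dnmt3aa, was low throughout, with 21.1, 21.1 and 8.28 in cells against 8.02, 65.5 and 19.9 in tissue.

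Of 17 other genes of DNA methylation and demethylation, 5 rose and 4 fell, with a median change of 0.58, near the 30.5% higher, the 21.7% lower and the median of 0.59 over all names. The falls included apobec2a and apobec2b, muscle-enriched members of the cytidine deaminase family, with changes of -8.82 ± 0.70 and -5.95 ± 0.80 (limma adjusted p = 0.000105 and 0.000896). Among the rises were gadd45aa, a stress-induced gene, at 5.55 ± 1.39 (limma adjusted p = 0.0154), and hells, a chromatin remodeller needed for DNA methylation, at 1.57 ± 0.47 (limma adjusted p = 0.0310). gadd45aa read 357, 79.4 and 79.7 in cells and 0, 21.8 and 0 in tissue, so the size of its change depends on the pseudocount. The gene of uhrf1, which brings DNMT1 to replicated DNA, had a change of -0.11 ± 0.20 and did not pass (2.43 under equal totals).

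Of 6 H3K27 enzymes, 2 rose, 2 fell and 2 did not pass, where 30.5% of all names rose and 21.7% fell. Both EZH methyltransferase genes rose in cells, both kdm6b demethylase genes fell on the deposited scale, and kdm6a and kdm6al did not pass. EZH1 and ezh2 encode the alternative catalytic subunits of Polycomb repressive complex 2, the enzyme that methylates this lysine. The level of EZH1 was 2066, 1384 and 1338 in cells and 412, 555 and 569 in tissue, well apart (1.62 ± 0.23, limma adjusted p = 0.00127). The ezh2 levels were 102, 168 and 112 in cells and 0, 3.97 and 59.7 in tissue, so that tissue ranged from no read to 30 reads. Its change of 4.23 ± 1.43 passed by little (limma adjusted p = 0.0469), and the call was lost under TMM, median-of-ratios scaling, a pseudocount of 0.5 and summed transcripts, and on leaving out any 1 library but tissue library 3. The EZH1 and ezh2 transcripts printed here lie on separate assembled genes of 1 assembly component. How reads that match both were counted was not given in the sources used here.

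KDM6 proteins remove H3K27 methylation. Their gene kdm6ba read 201, 277 and 318 in cells and 383, 1107 and 1038 in tissue, and kdm6bb read 115, 110.2 and 192 in cells and 251, 480.0 and 324 in tissue. Their groups did not overlap, with changes of -1.54 ± 0.44 and -1.33 ± 0.35 (limma adjusted p = 0.0244 and 0.0191; 0.99, not called, and 1.20 under equal totals). Of their tested transcripts, 11 of 16 for kdm6ba and 4 of 5 for kdm6bb were lower and none higher. Neither call was kept in every fit without 1 library. That of kdm6ba was lost without any 1 library but tissue library 1, and that of kdm6bb without cell library 1, cell library 2 or tissue library 2. In those fits the changes ran from -2.04 to -1.27 for kdm6ba and from -1.58 to -1.08 for kdm6bb. Of all 32 calls, 19, 18 and 20 were kept without cell library 1, 2 or 3. Their relatives kdm6a and kdm6al, the UTX type, had changes of -0.18 ± 0.32 and -0.22 ± 0.22 with overlapping groups, and share an assembled gene. Levels of kdm6a were 106, 139 and 95.9 in cells and 120.4, 147 and 117 in tissue, and those of kdm6al 238, 297 and 288 and 310.3, 379 and 275 in the same order. Among 27 Polycomb partners 5 rose and 2 fell (median 0.83), against 30.5% higher and 21.7% lower over all names. The accessory gene phf19 rose (1.74 ± 0.27, limma adjusted p = 0.00186), and jarid2b fell (-4.14 ± 0.67, limma adjusted p = 0.00216). The duplicate jarid2a read 189, 185 and 273 in cells and 182, 236 and 177 in tissue. It did not pass (0.11, limma adjusted p = 0.757). Of the core subunit genes suz12b rose by 0.57 log2 units (limma adjusted p = 0.0434), close to the median of 0.59 over all names. Its duplicate suz12a, at 0.81 (limma adjusted p = 0.0714), and eed, at 0.14, did not pass.

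For H3K4, 3 of 6 demethylase genes rose and 2 of 10 methyltransferase genes fell; no demethylase fell and no methyltransferase rose on the deposited scale. Over all names, 30.5% were higher and 21.7% lower, so 2 of 10 is near the background. The gene kdm5bb encodes an enzyme that strips trimethyl groups from this lysine. It measured 443, 514 and 542 in cells and 96.3, 133 and 77.6 in tissue (2.31 ± 0.28, limma adjusted p = 0.000508), and 8 of its 11 transcripts rose. Its duplicate kdm5ba, at 1194, 1230.3 and 1515 in cells and 1139.5, 605 and 678 in tissue, changed by 0.75 ± 0.27 and missed the threshold (limma adjusted p = 0.0539). The related kdm5a went from 423, 294 and 372 in tissue to 640.2, 636 and 694 in cells (0.87 ± 0.20, limma adjusted p = 0.0101), and kdm1a, or LSD1, from 257, 220.2 and 173 in tissue to 462, 498 and 566 in cells (1.24 ± 0.23, limma adjusted p = 0.00380). In each of these called genes the lowest cell library exceeded the highest tissue library. The remaining demethylase genes, kdm5c and KDM1B, overlapped between groups, kdm5c at 1310.0, 1319 and 1478 in cells and 1236, 1387 and 909 in tissue.

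On the methyltransferase side, setd7, which places a single methyl group on H3K4 and on other proteins, fell from 3325, 2045 and 2441 in tissue to 1007, 1222 and 1172 in cells. The change was -1.17 ± 0.21 (limma adjusted p = 0.00370; 1.36 under equal totals), and 9 of 10 transcripts were lower. The MLL-type gene kmt2ba measured 387, 236 and 354 in cells and 725, 563 and 535 in tissue (-0.92 ± 0.25, limma adjusted p = 0.0223; 1.62 under equal totals), and its call was lost without cell library 2. The other 8 genes, KMT2A, kmt2bb, kmt2ca, kmt2cb, kmt2d, kmt2e, setd1a and setd1ba, did not pass, with changes from -0.40 for kmt2cb to 0.73 for kmt2d. Both ends of this range had groups that did not overlap. kmt2cb read 368, 419 and 455 in cells and 522, 629 and 491 in tissue, and kmt2d, the enhancer methyltransferase MLL4 in mammals, read 289, 246 and 295 in cells and 182, 220.2 and 113 in tissue. KMT2A, the MLL1 gene, overlapped at 704, 357 and 505 in cells and 257, 369 and 489 in tissue. The kmt2cb and kmt2d transcripts printed here and that used for kmt2ca lie on separate assembled genes of 1 assembly component. The names kmt2ca and kmt2cb share a further, less abundant assembled gene. Of 14 partner subunits of these enzymes, 4 rose and none fell: psip1a (2.39), wdr82 (1.49), ash2l (1.02) and wdr5 (0.87), each in log2 units; the share that rose is near the 30.5% of all names. psip1b, the duplicate of psip1a, lay wholly lower in cells but did not pass (-1.07, limma adjusted p = 0.0857).

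At H3K9, 1 of 11 enzymes was called higher and 1 lower, at H3K36 2 of 10 higher and 1 lower, and at H4K20 none of 3. Over all names, 30.5% were higher and 21.7% lower. With 3 libraries a group, not passing does not show that a level was unchanged. The setdb genes, which also act on H3K9, lie outside the symbol rule and these counts. They are given below with other lysine methyltransferases, where setdb1b rose. Of 4 H3K9 methyltransferase genes taken by symbol, suv39h1b, which builds constitutive heterochromatin, was the one called: 21.9, 24.6 and 19.2 in cells and 0, 7.93 and 1.99 in tissue (2.93 ± 0.87, limma adjusted p = 0.0289). It rested on 5 reads over the 3 tissue libraries and 156 over the cell libraries, a ratio of 6.62 after scaling with an exact 95% counting interval of 2.78 to 20.7, and the call was lost without any 1 cell library or without tissue library 3. ehmt1a, ehmt1b and ehmt2, of the G9a and GLP type, overlapped between groups and did not pass. ehmt1b read 262, 384 and 324 in cells and 361, 286 and 191 in tissue, and ehmt1a 116, 118 and 169.5 in cells and 112, 161 and 131 in tissue. The ehmt2 transcript with the highest mean was uneven in tissue, at 0, 47.6 and 1.99 against 34.8, 40.4 and 53.6 in cells. Its change was 3.04 (limma adjusted p = 0.114). Without tissue library 2, left out because of its high value, the change was 4.64, which is a description and not a test. A second assembled gene named ehmt2, DN6583, read 0, 7.93 and 39.8 in tissue. It held 95.2% of the summed ehmt2 level in tissue library 3, so the low value there is not that of all ehmt2 transcripts. Neither DN6583 (1.24, limma adjusted p = 0.473) nor the summed transcripts (2.60, limma adjusted p = 0.228) passed. The H3K9 demethylases gave 1 fall among 7, KDM7A, at 163, 120.3 and 162 in cells and 193, 405 and 507 in tissue (-1.21 ± 0.40, limma adjusted p = 0.0420; 1.32 under equal totals). The KDM7A call was lost without any 1 library but tissue library 1. Of the same 7, kdm4aa and kdm4c lay wholly lower in cells but did not pass (limma adjusted p = 0.0596 for kdm4aa; kdm4c missed the threshold narrowly). kdm4aa read 554, 372 and 437 in cells and 843, 742 and 557 in tissue. A second assembled gene named kdm4aa, DN1953_c0_g1, was lower in cells, with 1 of 6 transcripts called (-1.06 ± 0.26, limma adjusted p = 0.0143). Under equal totals it was 1.47. Another kdm4aa assembled gene, DN4459_c0_g1, did not pass (-0.37). kdm3b, with 1811, 1747 and 1754 in cells and 1757, 1617 and 917 in tissue, overlapped.

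For H3K36, the NSD-family methyltransferase genes nsd2 and nsd1a rose. The level of nsd2 was 203, 183 and 200.0 in cells and 5.35, 85.3 and 37.8 in tissue (2.82 ± 0.93, limma adjusted p = 0.0421), that is, even across cells and uneven across tissue; its assembled gene is shared with nsd3. Levels of nsd1a were 217, 331 and 296 in cells and 109.7, 95.2 and 191 in tissue (1.13 ± 0.35, limma adjusted p = 0.0340). The nsd2 call was lost under TMM and without any 1 cell library or tissue library 3, and that of nsd1a under TMM, median-of-ratios scaling and voom and without any 1 library but tissue library 3. Among the demethylases of this lysine, kdm2bb fell from 118, 85.3 and 71.6 in tissue to 30.1, 21.1 and 32.7 in cells (-1.67 ± 0.51, limma adjusted p = 0.0323; 0.82 under equal totals, not called), and the call was lost without any 1 cell library. Its relatives kdm2aa and kdm2ab overlapped between groups, at 307, 287 and 297 in cells and 249, 381 and 358 in tissue for kdm2aa and at 343, 323 and 382 in cells and 875, 381 and 334 in tissue for kdm2ab. setd2, the main H3K36 trimethylating enzyme, stood at 520.1, 365 and 447 in cells and 313, 421 and 418 in tissue, and its groups overlapped. None of the 3 H4K20 methyltransferase genes, kmt5aa, kmt5ab and kmt5b, passed. kmt5aa, which with kmt5ab corresponds to the monomethylating enzyme SETD8 of mammals, lay wholly higher in cells at 408, 377 and 389 against 102, 278 and 328 in tissue (limma adjusted p = 0.135). kmt5ab overlapped, with 573, 525 and 594 in cells and 687, 529.6 and 597 in tissue.

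**Figure D2:**
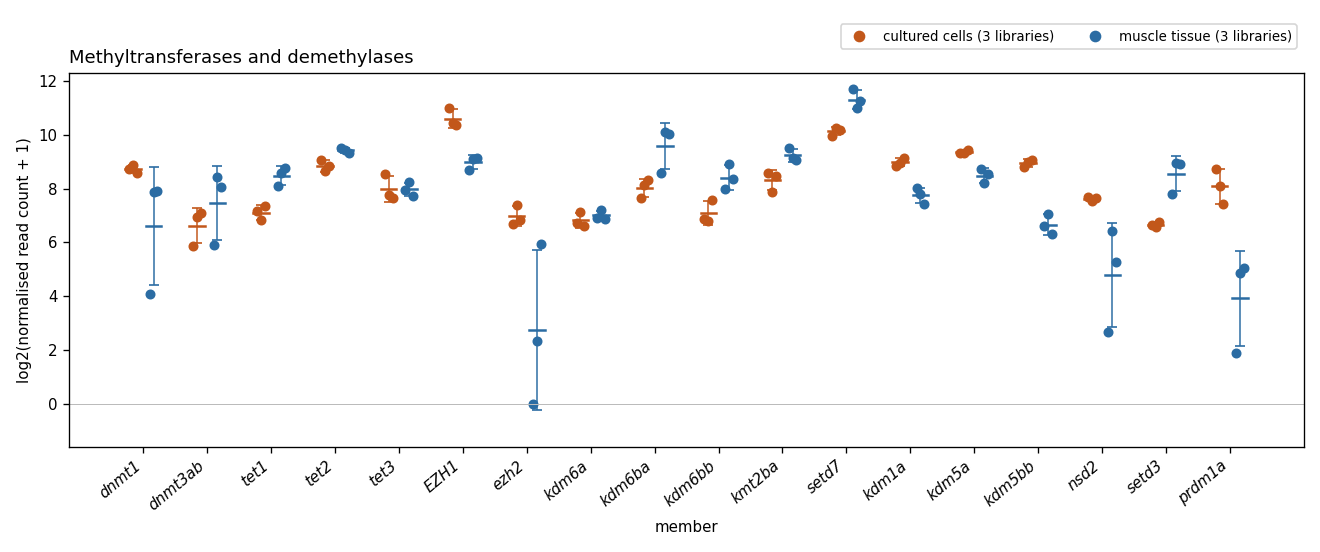
Levels of 18 methylation enzymes in each of the 6 libraries, as log2(normalised read count + 1). Points are libraries, horizontal bars group means and whiskers 1 SD (n = 3); tissue points of dnmt1, ezh2, nsd2 and prdm1a are spread widely, with tissue library 1 lowest, while tet1, kdm1a, kdm5bb and setd7 show separate groups.

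Of 9 histone deacetylase genes tested, with hdac12 counted apart below, 4 rose and 2 fell, where 30.5% of all names rose and 21.7% fell. Members of class IIa went in opposite directions: hdac4 and hdac7a rose and hdac9b fell on the deposited scale. hdac4 had levels of 1409, 1967 and 1899 in cells and 74.9, 186 and 105 in tissue, a log2 change of 3.92 ± 0.35 or 15.2-fold (limma adjusted p = 0.000156), with all 9 transcripts higher. hdac7a had 834, 603 and 930.4 in cells and 77.6, 179 and 185 in tissue (2.49 ± 0.38, limma adjusted p = 0.00172), with all 11 transcripts higher. Against these, hdac9b went from 575, 619 and 379.9 in tissue to 115, 64.1 and 56.2 in cells (-2.77 ± 0.36, limma adjusted p = 0.000809; -0.24 under equal totals, not called). In mammals, class IIa deacetylases are known to bind MEF2 and to shuttle between nucleus and cytoplasm. hdac5 was low, with 10.2, 14.0 and 9.59 in cells and 0, 7.93 and 21.9 in tissue, and was not called.

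In class I, which holds the nuclear deacetylases of the Sin3, NuRD and CoREST complexes, hdac1 rose from 139, 171 and 173 in tissue to 944, 1175 and 1036 in cells (2.70 ± 0.19, or 6.51-fold; limma adjusted p = 7.33e-05). It had 1 transcript, and the groups lay far apart. HDAC3, the catalytic subunit of a nuclear receptor corepressor complex, read 316, 398 and 367 in cells and 203, 305 and 255 in tissue. It changed by 0.51 ± 0.24, close to the median of all names, and did not pass (limma adjusted p = 0.113). The hdac8 transcript with the highest mean fell, from 425, 579 and 428 in tissue to 221, 249 and 198 in cells (-1.09 ± 0.22, limma adjusted p = 0.00634; 1.44 under equal totals), but its transcripts summed did not. The class IIb gene hdac6, a cytoplasmic tubulin deacetylase, rose from 96.3, 99.2 and 169 in tissue to 291, 367 and 395 in cells (1.56 ± 0.31, limma adjusted p = 0.00571), while hdac10, at 77.8, 82.1 and 85.9 in cells and 80.2, 109 and 91.5 in tissue, overlapped. For hdac11, below the filter and not tested, levels were 32.1, 4.39 and 12.2 in cells and 0, 7.93 and 0 in tissue, which overlapped. Pooled over libraries there were 120 reads in cells and 4 in tissue, a ratio of 6.13 after scaling. Its exact 95% counting interval of 2.33 to 22.9 covers counting error only and leaves out the spread between libraries. Of 22 corepressor subunits, 9 rose and 2 fell (median 0.81), against 30.5% higher and 21.7% lower over all names. The rises included mta1 of NuRD (2.93 ± 0.22, limma adjusted p = 8.28e-05) and rcor1 of CoREST (1.97 ± 0.23, limma adjusted p = 0.000419). chd3 and sin3aa fell, with log2 changes of -1.07 and -0.85 (1.46 and 1.69 under equal totals).

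Of the sirtuins, NAD-dependent deacylases, sirt2 and the most abundant sirt5 transcript fell on the deposited scale, and none of the other 4 tested passed. Over all names, 21.7% were lower. sirt2, largely a cytoplasmic enzyme, read 253, 219 and 255 in cells and 538, 440.4 and 547 in tissue (-1.06 ± 0.20, limma adjusted p = 0.00406; 1.47 under equal totals). The most abundant transcript named sirt5, a mitochondrial desuccinylase in mammals, read 231, 206 and 195 in cells and 1271, 946 and 750.0 in tissue (-2.20 ± 0.24, limma adjusted p = 0.000322; 0.34 under equal totals, not called). Its call did not hold for all transcripts of the name: a second assembled gene named SIRT5 was higher in cells (4.74 ± 0.62, limma adjusted p = 0.000803), and the sum changed by 0.19 (limma adjusted p = 0.454). sirt1, the nuclear histone and p53 deacetylase of mammals, overlapped at 124, 160.2 and 167 in cells and 104, 228 and 191 in tissue. The mitochondrial sirt3 overlapped in one library, at 39.5, 32.9 and 28.3 in cells and 152, 119 and 35.8 in tissue. sirt1, sirt3, sirt6 and sirt7 did not pass, although sirt6 lay wholly above in cells, and sirt4, below the filter, read 1.56, 8.78 and 0.872 in cells and 0, 19.8 and 51.7 in tissue.

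Among 9 lysine acetyltransferases, kat6b fell on the deposited scale and kat2a rose, where 21.7% of all names fell and 30.5% rose. kat6b, or MORF, which acetylates histone H3, was even in both groups, with 268, 261 and 302 in cells and 1747, 1748 and 2264 in tissue. Its change of -2.78 ± 0.18 corresponds to 6.87-fold more in tissue (limma adjusted p = 4.97e-05) and had the smallest p-value of the 93 enzymes, and all 3 transcripts fell; under equal totals it was -0.24 and not called. The paralogue kat6a had 296, 291 and 213 in cells and 214, 411 and 312 in tissue, overlapping. kat2a, or GCN5, rose from 48.1, 83.3 and 57.7 in tissue to 138, 172 and 170.4 in cells (1.36 ± 0.37, limma adjusted p = 0.0216), a call lost with summed transcripts, under voom and without any 1 cell library. The related kat2b, or PCAF, which acetylates MyoD in mammals, had 175, 181 and 188 in cells and 626, 286 and 213 in tissue, wholly lower in cells but not called (limma adjusted p = 0.1102). KAT7, kat7b, kat5b, kat8 and kat14 did not pass. Of these kat5b, or TIP60, read 249, 206 and 235 in cells and 233, 343 and 553 in tissue, where tissue library 1 lay among the cell values. Of 8 other acetyltransferase genes tested, crebbpb (-3.88 ± 0.47, limma adjusted p = 0.000553) and naa10 (-1.90 ± 0.22, limma adjusted p = 0.000468; 0.64 under equal totals) fell; crebbpa and ep300b, also of the CBP and p300 family, did not pass (-0.27 and -0.22; 2.27 and 2.32 under equal totals).

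**Figure D3:**
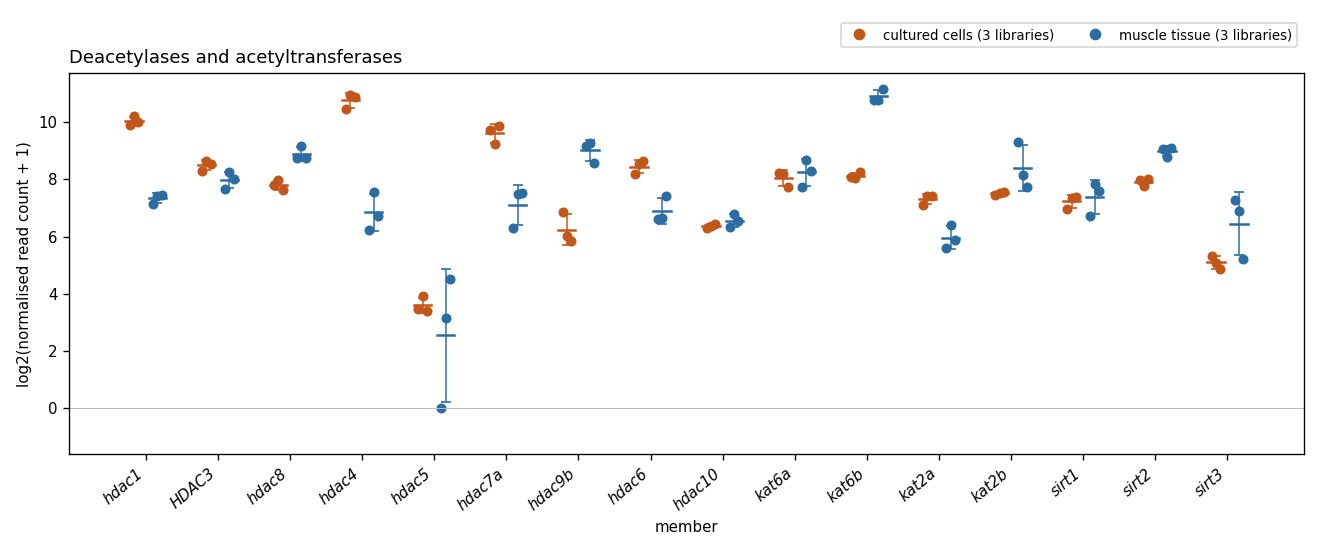
Levels of acetyltransferases, deacetylases and sirtuins in each of the 6 libraries, as log2(normalised read count + 1). Points are libraries, horizontal bars group means and whiskers 1 SD (n = 3); hdac1, hdac4 and hdac7a sit higher in cells and hdac9b and kat6b higher in tissue, with no overlap, on the deposited scale.

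PRDM genes encode zinc finger proteins with a SET-like domain, only some of which methylate histones. Of 11 tested under a prdm symbol, 4 rose and none fell, where 30.5% of all names rose and 21.7% fell. The PRDM gene mecom lies outside the symbol rule and is counted below with other lysine methyltransferases. It fell, from 32.1, 103 and 137 in tissue to 8.60, 6.15 and 9.15 in cells (-3.14 ± 0.75, limma adjusted p = 0.0128). prdm1a, known as Blimp1 and needed in zebrafish for slow muscle fibre fate, had 427, 276 and 171 in cells and 2.67, 27.8 and 31.8 in tissue (4.17 ± 0.93, limma adjusted p = 0.00915); every cell library lay far above every tissue library, and the call was lost without cell library 1. prdm11 rose from 74.9, 49.6 and 15.9 in tissue to 248, 179 and 172 in cells (2.30 ± 0.61, limma adjusted p = 0.0194), a call lost without any 1 cell library. PRDM15, low throughout at 19.2, 41.3 and 28.8 in cells and 5.35, 7.93 and 7.96 in tissue, and prdm2b, at 644, 495 and 523 in cells and 289, 403 and 316 in tissue, passed narrowly (limma adjusted p = 0.0462 and 0.0285). The PRDM15 call was lost under TMM, upper-quartile and median-of-ratios scaling, with no filter, a pseudocount of 0.5 or a robust prior, and without any 1 library but tissue library 1. That of prdm2b was lost under TMM, median-of-ratios scaling, summed transcripts and voom, and without any 1 cell library or tissue library 3.

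The remaining SET-domain genes were counted apart. setd3, which methylates a histidine of actin, fell from 222, 498 and 485 in tissue to 98.2, 95.2 and 108 in cells (-1.90 ± 0.37, limma adjusted p = 0.00493; 0.63 under equal totals, not called), with all 3 transcripts lower. setd6, which methylates the NF-kappaB subunit RelA in mammals, read 35.2, 64.5 and 40.5 in cells against 0, 0 and 5.97 in tissue (limma adjusted p = 0.00552). The tissue libraries held 3 setd6 reads in all and the cell libraries 330, a ratio of 23.5 after scaling with an exact 95% counting interval of 7.97 to 115; intervals here cover counting error only. setd4, setd5 and setd9 did not pass, and neither did the deacetylase gene hdac12. setd5 was wholly higher in cells at 598, 600.0 and 607 against 249, 524 and 382 in tissue (limma adjusted p = 0.0778). Among 13 other lysine methyltransferase genes, 4 fell and 1 rose, against 21.7% lower and 30.5% higher over all names. The falls of smyd1a and smyd1b, muscle-specific enzymes that act in myosin assembly, were larger than that of any of the 93 enzymes. smyd1a had 0, 21.5 and 23.1 in cells and 91534, 60338 and 67458 in tissue (-13.11 ± 1.17, limma adjusted p = 0.000154), and smyd1b had 9.39, 7.46 and 34.4 in cells and 3263, 4644 and 5464 in tissue (-8.22 ± 0.55, limma adjusted p = 5.91e-05). They moved with the fast fibre markers. The H3K9 methyltransferase gene setdb1b rose (1.23 ± 0.21, limma adjusted p = 0.00306), with 515, 523 and 522 in cells and 187, 274 and 213 in tissue. Its relatives setdb1a and setdb2 did not pass (-0.11 and -0.36).

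A ratio of 2 enzymes within a library, here on log2(value + 1), depends on the scaling of libraries only through the pseudocount of 1. A set of 4 such ratios was planned, each with an exact two-sided permutation test over the 6 libraries, whose smallest possible p is 0.1. The ratio of H3K4 methyltransferases to H3K4 demethylases, as mean log2 levels, was -1.11, -1.12 and -1.30 in cells and -0.33, -0.15 and -0.54 in tissue. It was lower in every cell library than in any tissue library, the means differing by -0.84 log2 units (exact permutation p = 0.1). The others overlapped. ezh2 relative to EZH1 differed by 2.60 (exact permutation p = 0.3), class I relative to class IIa deacetylases by -0.46 (exact permutation p = 0.3), a difference that became 0.035 with transcripts summed, and DNMT relative to TET genes by 0.90 (exact permutation p = 0.5).

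Several pairs were chosen after their values were seen and are given as descriptions, with no test. In hdac4 relative to hdac9b, the cell libraries read 3.60, 4.92 and 5.05 and the tissue libraries -2.92, -1.73 and -1.84. The shift within this class of deacetylases was 6.69 log2 units between the groups. Transcript lengths were not used here, so the ratios are compared between libraries and not read as levels of one gene against another. The shift was 5.26 for hdac7a relative to hdac9b and 2.19 for hdac1 relative to HDAC3. For kat6b relative to kat6a it was -2.59, and for kat2b relative to kat2a -2.25. The H3K27 pair of the kdm6b genes relative to kdm6a and kdm6al shifted by -1.23, and tet1 relative to tet3 by -1.39. kdm5bb relative to its duplicate kdm5ba shifted by 1.56. In each of these pairs the 3 cell libraries lay on one side of the 3 tissue libraries.

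**Figure D4:**
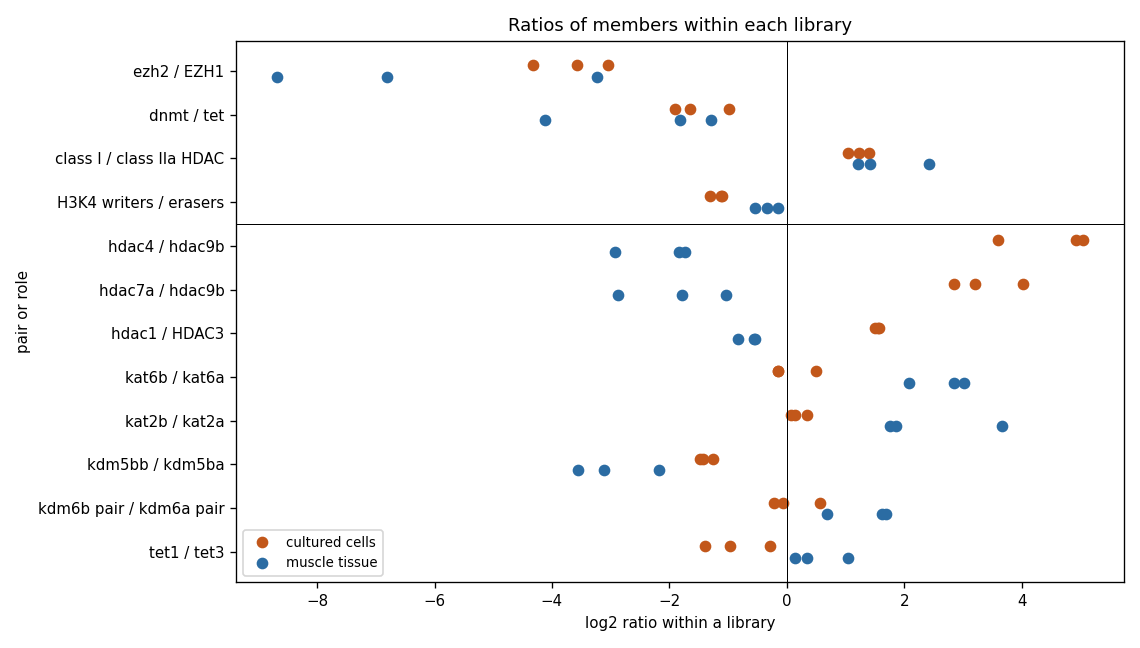
Log2 ratios of members within each of the 6 libraries, which depend on scaling only through the pseudocount of 1. Points are libraries of cultured cells and of muscle tissue; the H3K4 methyltransferase to demethylase ratio is lower in all cell libraries (difference of means -0.84) and the hdac4 to hdac9b ratio higher in all (6.69).

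Some names covered more than one assembled gene, and there the choice of transcript set the result. The 95 names held 159 assembled genes, and 44 names had more than 1. Of sirt5, assembled gene DN749 had 3 transcripts, all lower in cells, and DN6436, spelled SIRT5 in the table, had 8, all higher. DN6436 gave 82.6% ± 1.05 (SD, n = 3) of the summed sirt5 level in cells and 5.13% ± 3.65 in tissue, and the sum changed by 0.19 (limma adjusted p = 0.454). In hdac8, DN4268 had 3 of 4 transcripts lower and DN4377 had 7 of 8 higher. DN4377 made up 54.6% ± 2.92 (SD, n = 3) of the hdac8 level in cells and 12.99% ± 6.25 in tissue, and the sum changed by -0.095 (limma adjusted p = 0.702). These shares do not depend on scaling. They and the sums do weigh each assembled gene by its number of transcripts, which may carry the same reads. A share of the summed level is therefore not a share of separate reads. EZH1 spread over 7 assembled genes, of which DN634_c0_g2 held 99.5% of the level in cells and 95.3% in tissue, with all 8 transcripts higher; the single transcript of DN7438 was lower. For kdm4c the most abundant transcript lay lower in cells and did not pass, while 5 others of 11 were higher and the sum changed by 0.30 (limma adjusted p = 0.363). Whether the assembled genes under 1 name are duplicated genes, fragments or alleles was not tested. Over all 522 tested transcripts of the enzymes, 94 (18.0%) were higher and 60 (11.5%) lower, against 27.4% and 19.7% of all transcripts.

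**Figure D5:**
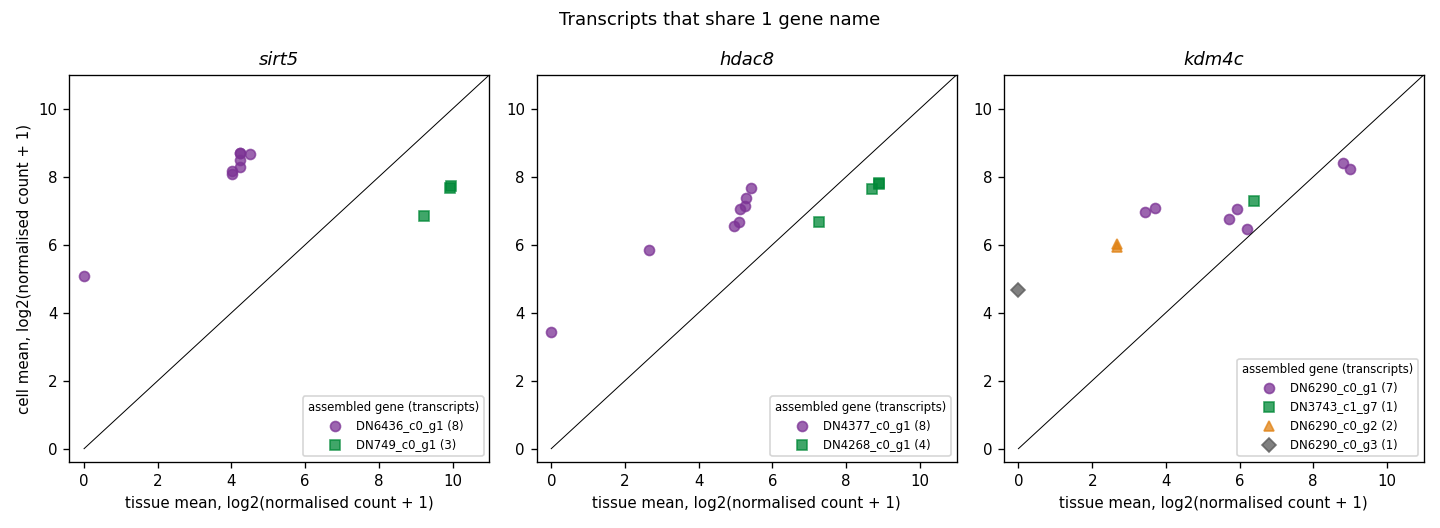
Mean log2(normalised read count + 1) of each transcript in cells (vertical) against tissue (horizontal) for names that span several assembled genes, coloured by assembled gene (3 libraries a group). Transcripts above the diagonal are higher in cells; the assembled genes of sirt5 and of hdac8 fall on opposite sides on the deposited scale.

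Chromatin remodelling partners were followed alongside. Of 24 histone chaperone and SWI/SNF genes, 8 rose and 5 fell (median 0.20). Beside this list and those that follow, 30.5% of all names were higher and 21.7% lower. The interchangeable subunit genes moved apart. smarcd3a and smarcd3b, which encode the BAF60C subunit used in muscle and heart, fell, with changes of -4.36 ± 0.54 and -2.86 ± 0.29, whereas smarcd1 rose by 1.35 ± 0.27 (limma adjusted p = 0.000621, 0.000264 and 0.00622). actl6a, the BAF53A subunit of dividing cells, rose by 3.11 ± 0.30 (limma adjusted p = 0.000203), with the replication-coupled chaperone genes chaf1a (2.61) and chaf1b (2.50). Among heterochromatin proteins 1 of 8, cbx5, rose (2.04 ± 0.50, limma adjusted p = 0.0138). Of 8 arginine methyltransferases prmt7 rose (1.53 ± 0.44, limma adjusted p = 0.0267), and of 9 other demethylase and hydroxylase genes 4 fell and 1 rose. Under equal totals the medians of these lists were 2.74, 2.75, 2.95 and 1.99, against 3.06 for all names. Called higher alongside the 10 proliferation markers were actl6a, chaf1a, chaf1b, ezh2, nsd2 and suv39h1b. The chaperone genes asf1ba (1.55) and asf1bb (0.040) did not pass, and neither did dnmt1 (2.11) and uhrf1 (-0.11), which act at replicated DNA. The part of proliferation in any of these levels was not tested.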

How the data were processed

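The deposited table, made by the authors, gives normalised read counts (counts divided by 1 size factor per library) for 71447 Trinity transcripts, per the file headers and the values; each value was a whole multiple of its library's smallest value above 0 (tolerance 0.01) for 100% of values. Libraries were stranded and poly(A)-selected, per the labels' protocols. The submitters' processing notes list, without saying what each was used for, GRCz11, Bowtie2, Trimmomatic, FastQC 0.11.8 and DESeq2. The counting tool and its treatment of shared reads were not given in the sources used here.

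Transcripts with a value of at least 10 in 3 libraries were tested with limma 3.58.1 (R 4.3.3; trended prior) on log2(value + 1), with Benjamini-Hochberg adjustment over 65662 transcripts and a threshold of 0.05. Enzymes and lists were chosen with earlier results of these data known. Values per library are given for the 2 most abundant members of a role, its largest called changes, a fixed set of genes and the other called members. Same-numbered libraries did not deviate together. Alternatives covered pseudocount, filter, scaling, a replicate block, summed transcripts, voom and leaving out each library; fits without a library kept the same transcripts. The tests of edgeR and DESeq2 were planned on recovered reads and not run, because the deposited values, written with decimal commas, could not be registered as counts. No sequence or coordinates were used here, and the values of some genes are not reported here.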

Additional observations from a re-analysis of the deposited data

How the results depend on the processing

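Of 93 enzymes, 18 were higher and 14 lower. Equal totals gave 80 and 0, with a median change of 2.74 in place of 0.24. The median was 0.13 under TMM, 0.092 under median-of-ratios scaling and 0.0799 at a filter of 50. Without 1 library each, higher calls ran from 9 to 22, lower calls from 8 to 16 and the median from 0.025 to 0.28. The 3 lowest counts of higher calls, 9, 10 and 10, came without cell libraries 1, 2 and 3, and the 8 lower calls came without cell library 2. The other settings moved both counts by less than 1.5 times. With the replicate number as a block there were 15 higher and 11 lower, the calls of tet2, KDM7A, kdm2bb, kat2a, PRDM15 and prdm2b being lost; same-numbered libraries correlated at -0.063, -0.045 and -0.017, so the numbers do not pair them. Under equal totals 36 enzymes went from below to above 0. Among the enzymes chosen by the naming rule and called in either fit they were tet1 (1.16), tet2 (1.96), kdm6ba (0.99), kdm6bb (1.20), kdm6a (2.33), kdm6al (2.31), setd7 (1.36), kmt2ba (1.62), kmt2cb (2.14), ehmt1a (2.51), KDM7A (1.32), kdm4aa (1.89), kdm2aa (2.41), kdm2ab (2.07), kdm2bb (0.82), kmt5ab (2.44), hdac8 (1.44), hdac10 (2.33), kat2b (1.64), kat5b (1.91), setd3 (0.63), sirt1 (2.37), sirt2 (1.47) and sirt5 (0.34), of which kdm6ba, kdm2bb, setd3 and sirt5 were not called there. With transcripts summed, sirt5 changed by 0.19 and the class I to class IIa deacetylase ratio differed by 0.035. Without 1 library each, the H3K27 ratio ezh2 to ezh1 ran from 1.38 to 4.11, the class I to class IIa deacetylase ratio from -0.70 to -0.0975, the DNMT to TET ratio from 0.0465 to 1.46 and the H3K4 writer to eraser ratio from -0.94 to -0.74. The edgeR and DESeq2 alternatives were not run. A floor of 3 reads is 5.95 to 8.02 units in tissue and 1.17 to 1.32 in cells, which limits suv39h1b, setd6, ezh2, PRDM15 and hdac5.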
